A study of Homo sapiens with 48 samples.

Results

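The receptors described here are 10 members of the tumour necrosis factor (TNF) receptor superfamily, most of them known from B cells: TNFRSF13C, TNFRSF13B, TNFRSF17, TNFRSF14, TNFRSF21, TNFRSF1B, CD40, CD27, FAS and LTBR. They were taken by symbol from a table of 37706 genes. Of the 10 receptors, 9 passed the filter on low counts and were tested among 17749 genes. LTBR did not pass. The study grew 4 lymphoma lines, labelled as diffuse large B cell lymphoma of germinal centre type, for 6 days with inhibitors of 2 histone methyltransferases. The groups are DOT1Li (EPZ-5676, against the H3K79 methyltransferase DOT1L), EZH2i (GSK343, against the H3K27 methyltransferase EZH2), Combination (both inhibitors) and DMSO (the vehicle), each in the lines Oci-Ly7, Oci-Ly8, Oci-Ly18 and SUDHL6. Each of these 16 groups had 3 libraries, and all of a line's comparisons with DMSO share its 3 DMSO libraries. A group is 1 cell line under 1 treatment, and the sources used here give no doses.

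TNF family receptors sit in the plasma membrane and bind trimeric ligands. Members with a TRAF-binding tail, such as CD40 and the BAFF receptor, switch on NF-kB and support survival and activation, while members with a death domain, such as FAS, can start caspase-driven cell death. In germinal centres CD40 passes T cell help to B cells, FAS takes part in removing B cells, and TNFRSF14 restrains T follicular helper cells through BTLA and is often lost in lymphomas of this origin.

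Library totals ran between 5174269 and 18845074 counts, with Oci-Ly8 DOT1Li replicate 3 the shallowest. The slope of log2 CPM (read counts scaled to a common library total) on log2 exonic length was 0.0022 in Oci-Ly8 DMSO replicate 3 and 0.0235 in Oci-Ly8 DOT1Li replicate 3, against 0.212 to 0.437 in all other libraries. These 2 libraries stand apart, and the receptor calls and DMSO levels of Oci-Ly8 are given with and without them. All 7 B lineage markers averaged at least 1 CPM, and their summed level was 1388 to 2357 CPM in Combination, 1355 to 2471 CPM in EZH2i, 1310 to 2648 CPM in DOT1Li and 1045 to 2835 CPM in DMSO libraries. The 6 germinal centre B cell markers summed to 238 to 710 CPM in Combination and 380 to 734 CPM in DMSO libraries. By line, MME averaged at least 109 CPM and BCL6 at least 22.5 CPM. LMO2 averaged 0.184 CPM in Oci-Ly7 and 1.79 CPM in Oci-Ly18, MEF2B at most 1.58 CPM, and S1PR2 4.11 CPM in SUDHL6. Of 7 T cell markers, 3 averaged at least 1 CPM (CD28, CD3G and TRAC). The 7 summed to 6.76 to 28.3 CPM in Combination libraries and 8.10 to 101 CPM in DMSO libraries. CD3E averaged 2.65 CPM in Oci-Ly7, while CD2, CD3D and CD5 averaged below 0.4 CPM in every line. The summed markers of stromal or endothelial cells were at 13.1 to 117 CPM in Combination and 4.49 to 76.8 CPM in DMSO libraries, led by PECAM1 (at most 113 CPM, in Oci-Ly7). NK cell markers summed to 0.0806 to 22.5 CPM in Combination and 0 to 12.7 CPM in DMSO libraries, led by NCAM1 in Oci-Ly18, and myeloid markers to 0.338 to 20.1 CPM in Combination and 0.0695 to 16.1 CPM in DMSO libraries, led by LYZ in SUDHL6. The part of these markers in the results was not tested. The labels do not state whether the replicates of a group were grown separately, so p-values measure the spread between these libraries, which may be technical.

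The promoter sequences of 7 of the 10 receptors were found in RefSeq (GRCh38.p14). TNFRSF13C, TNFRSF17 and CD40 had no entry among the promoters used here. The 250 bases before the transcription start are printed for TNFRSF14, TNFRSF1B and TNFRSF21, which were higher in Combination than in DMSO on average over the lines, and for TNFRSF13B, which was lower, since promoters rich in CG pairs are the kind that the EZH2 complex is known to occupy. These averages do not hold for every line. With Combination, TNFRSF21 was called lower in SUDHL6 (log2 -0.59) and TNFRSF13B higher in Oci-Ly7 (0.42). The TNFRSF1B average depends on few counts in some lines, and its call was lost without Oci-Ly7 Combination replicate 1. Capitals mark each CG pair, a motif that reads the same on both strands. The sequences run 5′ to 3′ along the gene. For TNFRSF14 the start used is that of RefSeq, and this window lies inside the gene as the deposited table places it (from 2555639), downstream of that start.
TNFRSF14 (chr1:2556121-2556370, plus strand): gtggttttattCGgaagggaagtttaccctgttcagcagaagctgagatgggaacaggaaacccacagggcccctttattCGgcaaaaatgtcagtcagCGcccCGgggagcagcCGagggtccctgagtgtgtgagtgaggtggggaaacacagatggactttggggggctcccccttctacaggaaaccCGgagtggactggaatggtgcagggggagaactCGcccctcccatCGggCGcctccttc
TNFRSF1B (chr1:12166741-12166990, plus strand): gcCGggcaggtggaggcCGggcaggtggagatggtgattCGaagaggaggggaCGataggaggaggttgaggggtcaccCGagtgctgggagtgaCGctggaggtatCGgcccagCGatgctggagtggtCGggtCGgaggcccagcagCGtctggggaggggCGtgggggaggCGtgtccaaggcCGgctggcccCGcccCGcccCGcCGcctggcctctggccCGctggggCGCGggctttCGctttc
TNFRSF21 (chr6:47309906-47310155, minus strand): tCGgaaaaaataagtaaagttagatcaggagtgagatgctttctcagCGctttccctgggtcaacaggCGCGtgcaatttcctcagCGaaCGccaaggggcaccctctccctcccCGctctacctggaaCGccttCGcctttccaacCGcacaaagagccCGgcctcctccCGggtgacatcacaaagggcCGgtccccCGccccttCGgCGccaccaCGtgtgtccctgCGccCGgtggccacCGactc
TNFRSF13B (chr17:16972119-16972368, minus strand): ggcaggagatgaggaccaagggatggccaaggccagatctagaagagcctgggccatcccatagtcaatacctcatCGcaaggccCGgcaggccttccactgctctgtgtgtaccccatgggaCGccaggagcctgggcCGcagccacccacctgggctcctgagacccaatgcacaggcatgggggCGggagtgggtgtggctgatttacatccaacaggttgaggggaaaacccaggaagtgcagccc
TNFRSF1B held 22 CG pairs and TNFRSF21 held 20, above the median of 11 over 35116 promoters in the same table. TNFRSF14 held 9 and TNFRSF13B held 5. The share of all promoters with at least as many was 28% for TNFRSF1B, 32.4% for TNFRSF21, 54.1% for TNFRSF14 and 65.7% for TNFRSF13B. Among the other matched receptors, CD27 held 2, LTBR held 27, and the 3 FAS entries held 11, 14 and 19. Their RefSeq starts also differ from the deposited positions. The CD27 window (6443642 to 6443891) ends before the deposited start of the gene (6444955). The LTBR and FAS windows lie inside the deposited genes. These counts describe the letters in these windows, and no binding or histone mark was measured here.

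Before any inhibitor, the 4 lines carried different sets of receptors. All 9 tested receptors differed between the DMSO groups (F test over 4 lines, edgeR), in a table where 93.1% of all genes did. CD27, the receptor for CD70 and a marker of antigen-experienced B cells, was the highest per length in Oci-Ly8, at 63.5 ± 12.3 CPM per kb of exon (SD, n = 3), and in Oci-Ly7, at 35 ± 3.2. In SUDHL6 the highest per length were TNFRSF13C at 9.89 ± 0.25 CPM per kb and TNFRSF21 at 7.79 ± 0.63, and CD27 was at 0.0291 ± 0.0252. In Oci-Ly18, TNFRSF13B led at 26.7 ± 3.1 CPM per kb, with CD27 next at 16.1 ± 2.1.

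Several receptors were close to silent in 1 line or more. CD27 had 2 counts over the 3 SUDHL6 DMSO libraries, against 779, 823 and 725 counts in the Oci-Ly7 DMSO libraries. TNFRSF17 (BCMA), which binds APRIL and BAFF and marks plasma cells, had 1 count in SUDHL6 DMSO and 7 counts in Oci-Ly8 DMSO. TNFRSF1B (TNFR2), the TNF receptor without a death domain, had no count in Oci-Ly18 DMSO, which allows up to 3 counts or 0.0767 CPM over the group, and 1 count in Oci-Ly7 DMSO. That limit covers counting error only. LTBR, the lymphotoxin beta receptor of stromal and myeloid cells, had 2 counts in all 48 libraries, 1 in SUDHL6 DMSO replicate 3 and 1 in Oci-Ly18 DMSO replicate 2.

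**Figure D1:**
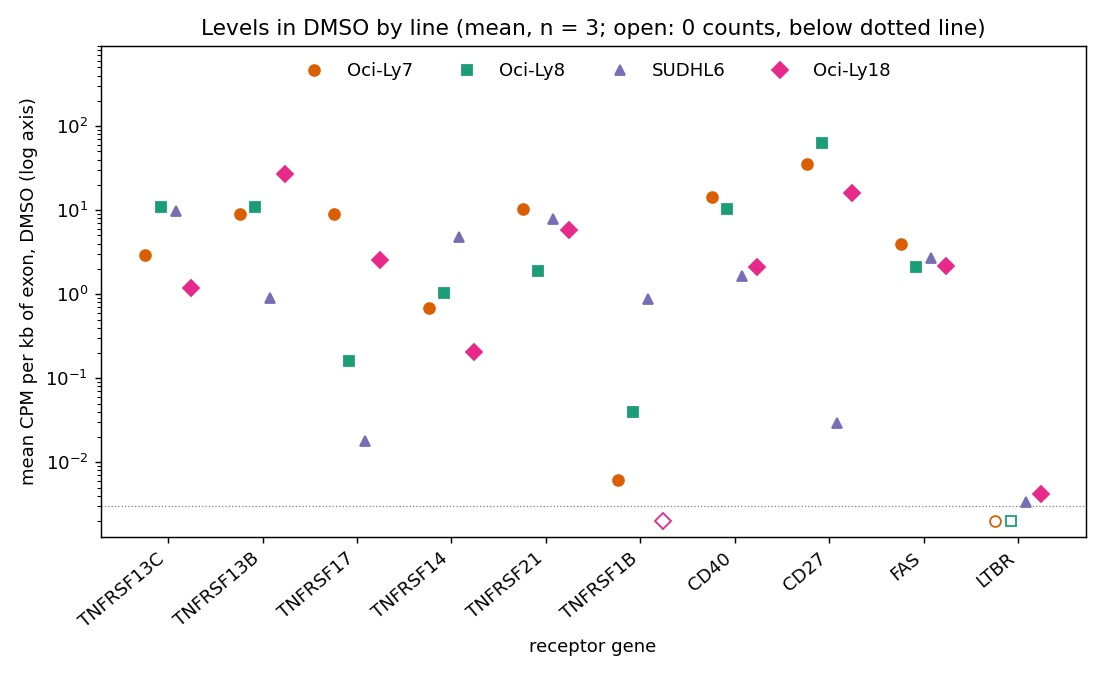
Mean level of each receptor in DMSO (n = 3 libraries) in CPM per kb of exon on a log axis, with 1 symbol per line and open symbols under the dotted line for 0 counts. CD27 spans 0.0291 to 63.5 CPM per kb between lines, FAS stays between 2.12 and 3.91, and LTBR lies near 0 everywhere.

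FAS, the death receptor for FAS ligand, varied least between lines, with 16.6 ± 1.6 CPM in Oci-Ly7, 11.6 ± 2.3 in SUDHL6, 9.27 ± 1.9 in Oci-Ly18 and 9.0 ± 1.8 in Oci-Ly8 (SD, n = 3 each). The last 3 were not called different from each other in edgeR's pairwise tests (adjusted p = 0.852 for Oci-Ly8 and Oci-Ly18, 0.0569 for Oci-Ly8 and SUDHL6, 0.0968 for SUDHL6 and Oci-Ly18). TNFRSF13C was at 42.7 ± 6.0 CPM in Oci-Ly8 and 39 ± 1.0 in SUDHL6, which were not called different (adjusted p = 0.391), then at 11.5 ± 1.2 in Oci-Ly7 and 4.73 ± 0.63 in Oci-Ly18. TNFRSF13B was at 94.7 ± 11 CPM in Oci-Ly18, 39 ± 10 in Oci-Ly8 and 32.3 ± 3.1 in Oci-Ly7, with no difference called between the last 2 lines (adjusted p = 0.166), and at 3.17 ± 0.17 in SUDHL6. TNFRSF14 had the opposite place for SUDHL6, which was the highest line at 29.8 ± 0.8 CPM, before Oci-Ly8 at 6.45 ± 0.53, Oci-Ly7 at 4.30 ± 0.59 and Oci-Ly18 at 1.26 ± 0.26. TNFRSF21 was at 37.0 ± 2.5 CPM in Oci-Ly7, 28 ± 2.3 in SUDHL6, 21.1 ± 1.9 in Oci-Ly18 and 6.80 ± 1.5 in Oci-Ly8, and CD40 at 35.9 ± 4.1, 4.20 ± 0.91, 5.39 ± 0.20 and 26 ± 0.9 in the same lines, with SUDHL6 and Oci-Ly18 not called different for CD40 (adjusted p = 0.0628). Without Oci-Ly8 DMSO replicate 3, the Oci-Ly8 means were 9.59 CPM for FAS, which puts it above Oci-Ly18, 41.1 for TNFRSF13C, 34.3 for TNFRSF13B, 6.16 for TNFRSF14, 7.68 for TNFRSF21 and 26.2 for CD40, and CD27 was at 56.6 CPM per kb. The pairs with Oci-Ly8 named here as not called different remained so without both libraries that stand apart. In bulk RNA of a line, fewer cells with a transcript and less transcript per cell cannot be told apart.

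On average over the 4 lines, 2 of the 9 tested receptors rose with DOT1Li (5.08% of all genes tested rose) and none fell (5.19% fell). That count of 0 from edgeR compares with 1 at an unadjusted p under 0.05 and 0 with DESeq2. With EZH2i, 4 rose (15.7% of all genes) and 1 fell (12.5%). With Combination, 4 rose (25.7%) and 1 fell (20.7%). The median log2 fold change over the 9 receptors was 0.28 with DOT1Li, 0.26 with EZH2i and 0.29 with Combination, beside 0.01, 0.03 and 0.08 over all genes tested. The DOT1Li median is the value of CD27, which takes in SUDHL6 with 5 counts against 2 with DMSO. Over the 3 lines with at least 10 counts, an average chosen after seeing the data, CD27 was at -0.07 with DOT1Li. TNFRSF17 was at 0.03 in that average, against 0.55 over 4 lines. The DOT1Li median thus depends on lines with few counts. A receptor is said to rise or fall where edgeR's quasi-likelihood test gave an adjusted p under 0.05 over all 17749 genes.

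**Figure D2:**
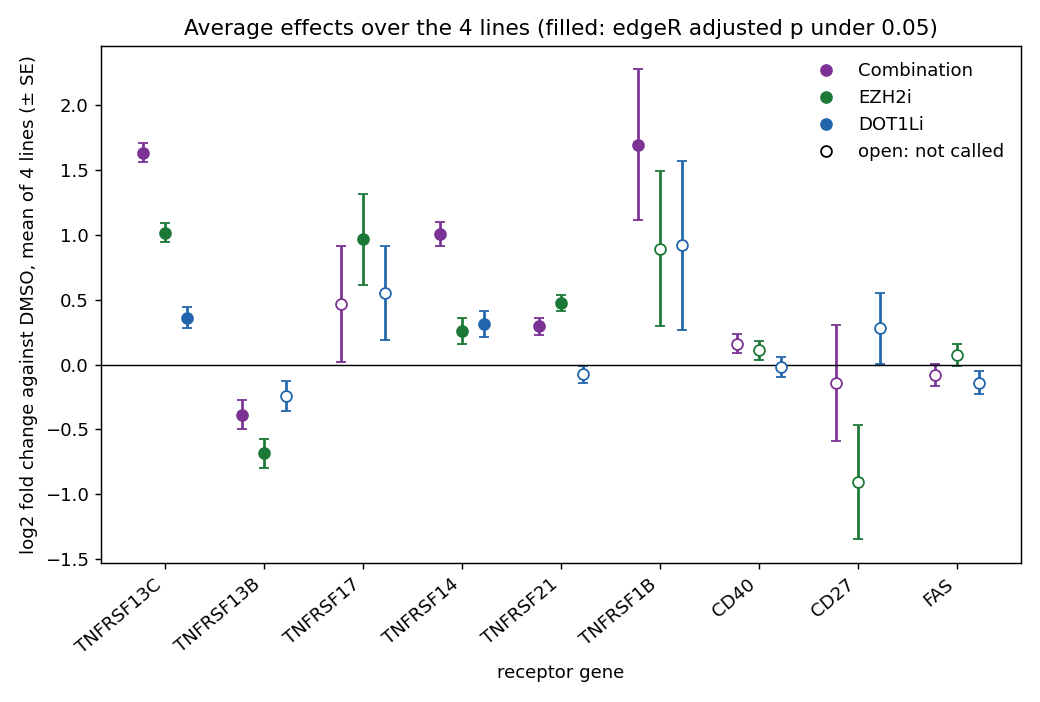
Log2 fold change against DMSO, averaged over the 4 lines, for the 9 tested receptors (points, with SE from the edgeR fit), with a filled point where the adjusted p is under 0.05. TNFRSF13C and TNFRSF14 are filled for all 3 treatments and are highest with Combination, at 1.63 and 1.01, and TNFRSF13B lies below 0 in all 3; the wide bars of TNFRSF1B, TNFRSF17 and CD27 belong to genes with few counts in some lines.

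In edgeR with its own scaling and all libraries, Combination gave at least as many calls as either inhibitor alone within each line. In Oci-Ly7, DOT1Li moved 1 of 9 receptors (2.90% of all genes), EZH2i moved 4 (13.7%) and Combination moved 6 (29.8%). In Oci-Ly8 the counts were 2 with DOT1Li (6.26%), 2 with EZH2i (17%) and 7 with Combination (35%). Without the 2 Oci-Ly8 libraries that stand apart, 4 of those 7 Combination calls were left. In SUDHL6 the counts were 0 with DOT1Li (4.86%), 3 with EZH2i (22.7%) and 6 with Combination (39.3%). The SUDHL6 count of 0 in edgeR compares with 4 at an unadjusted p under 0.05, with 2 called by DESeq2, and with 3 called when the replicate number was kept as a block. In Oci-Ly18 the counts were 0 with DOT1Li (6.15%), 4 with EZH2i (22%) and 4 with Combination (35%). The Oci-Ly18 count of 0 compares with 2 at an unadjusted p under 0.05, 0 with DESeq2 and 1 with the block. DESeq2 put EZH2i ahead of Combination in Oci-Ly18, with 5 calls and 4. EZH2i was also ahead there in edgeR with DESeq2's size factors, and in edgeR without the 2 Oci-Ly8 libraries that stand apart.

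**Figure D3:**
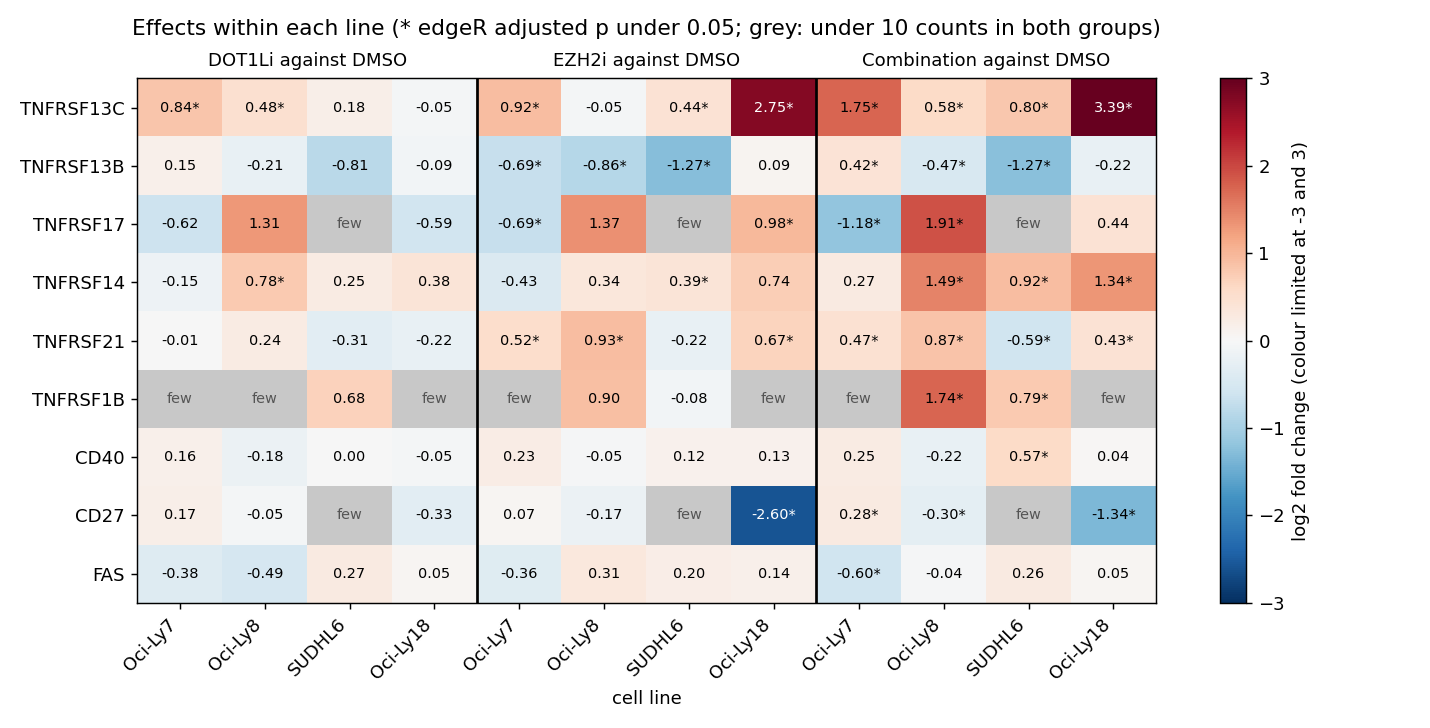
Log2 fold change of each treatment against DMSO within each line (colour and number), with a star at an adjusted p under 0.05 in edgeR; grey cells had under 10 counts in both groups and show no value. The strongest colours are TNFRSF13C in Oci-Ly18, at 2.75 with EZH2i and 3.39 with Combination, and CD27 in Oci-Ly18, at -2.60 with EZH2i.

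TNFRSF13C (ENSG00000159958, chromosome 22, 41922032 to 41926806) encodes the BAFF receptor, through which mature B cells receive their main survival signal. In Oci-Ly18 it had 5.17, 3.23 and 5.27 CPM with DOT1Li, 31.9, 33.2 and 30.7 CPM with EZH2i, and 36.3, 52.8 and 60.5 CPM with Combination, against 4.08, 5.33 and 4.77 CPM with DMSO. Every EZH2i and Combination library lay far above every DMSO library, and the DOT1Li libraries overlapped the DMSO range. The fold change in Oci-Ly18 was 6.74 with EZH2i (log2 2.75 ± 0.17 SE, adjusted p = 3.8e-16) and 10.5 with Combination (log2 3.39 ± 0.17, adjusted p = 1.2e-19).

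In Oci-Ly7, TNFRSF13C had 15.9, 22.01 and 24.1 CPM with DOT1Li, 23.2, 20.9 and 20.9 CPM with EZH2i, and 34.6, 44.3 and 37.2 CPM with Combination, against 10.1, 12.3 and 11.9 CPM with DMSO. No treated library of Oci-Ly7 fell into the DMSO range, and all Combination libraries were above those of both single inhibitors. The log2 changes were 0.84 ± 0.15 with DOT1Li (adjusted p = 0.000526), 0.92 ± 0.15 with EZH2i (1.5e-05) and 1.75 ± 0.15 with Combination (5.1e-13).

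In SUDHL6, TNFRSF13C had 43.5, 48 and 40.7 CPM with DOT1Li, 55.3, 56.3 and 46.5 CPM with EZH2i and 67.1, 71.2 and 65.8 CPM with Combination, against 40.1, 38.7 and 38.2 CPM with DMSO. All treated libraries were above the DMSO libraries, by little with DOT1Li. EZH2i (log2 0.44 ± 0.13, adjusted p = 0.00943) and Combination (0.80 ± 0.13, 1.7e-06) passed the test and DOT1Li did not (0.18 ± 0.13, adjusted p = 0.549). The EZH2i call was lost without SUDHL6 EZH2i replicate 2 (log2 0.38, adjusted p = 0.0551).

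In Oci-Ly8, TNFRSF13C had 66.3, 54.4 and 57.2 CPM with DOT1Li, 38, 43.4 and 42.3 CPM with EZH2i and 68.4, 60.6 and 62.5 CPM with Combination, against 46.5, 35.8 and 45.8 CPM with DMSO. There the EZH2i libraries lay within the DMSO range and the other treated libraries above it. DOT1Li (log2 0.48 ± 0.13, adjusted p = 0.0208) and Combination (0.58 ± 0.13, 0.000378) passed and EZH2i did not (-0.05 ± 0.13, 0.891). The DOT1Li call was lost without Oci-Ly8 DMSO replicate 2 (log2 0.36, adjusted p = 0.115) or Oci-Ly8 DOT1Li replicate 1 (0.38, 0.164), and with the line fitted alone (0.48, 0.0534). Without both libraries that stand apart DOT1Li gave 0.54 (0.0485) and Combination 0.63 (0.00148). Averaged over the lines, TNFRSF13C rose with DOT1Li (log2 0.36 ± 0.08, adjusted p = 0.00241), EZH2i (1.01 ± 0.07, 2.5e-14) and Combination (1.63 ± 0.07, 7.9e-22).

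**Figure D4:**
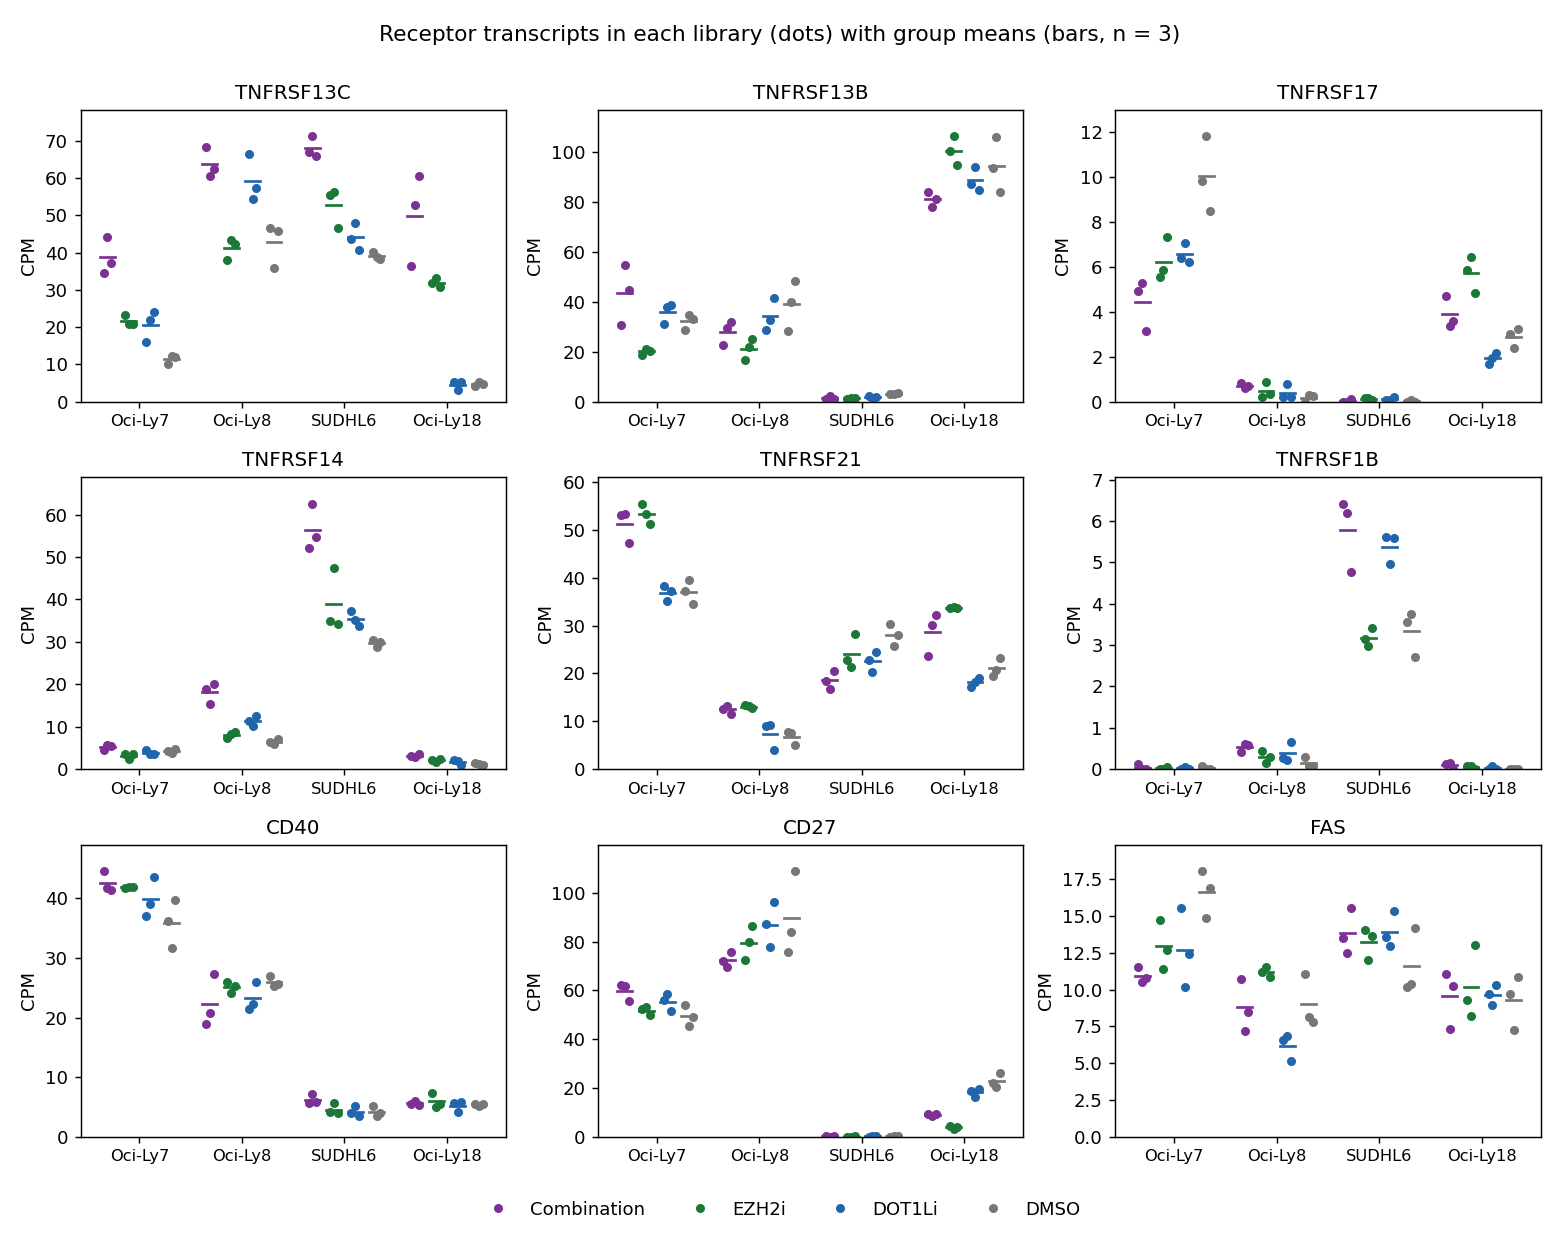
CPM of the 9 tested receptors in each library (dots) with the group mean (bar, n = 3), by line and treatment, with DMSO on the right of each line. TNFRSF13C with EZH2i and Combination in Oci-Ly18 (30.7 to 60.5 CPM, against 4.08 to 5.33 with DMSO) and CD27 with EZH2i in Oci-Ly18 (3.26 to 4.31 CPM, against 20.1 to 25.9) are the clearest separations.

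TNFRSF13B (ENSG00000240505, chromosome 17, 16929816 to 16972118) encodes TACI, which binds the ligands BAFF and APRIL and takes part in class switching. It fell with EZH2i on average (log2 -0.68 ± 0.11, adjusted p = 7.9e-06) and with Combination (-0.38 ± 0.11, 0.00467). In Oci-Ly8 it had 28.9, 32.6 and 41.7 CPM with DOT1Li, 16.6, 21.9 and 25.3 CPM with EZH2i and 22.8, 29.4 and 32.1 CPM with Combination, against 28.5, 39.97 and 48.5 CPM with DMSO. The EZH2i libraries were all below DMSO, while the Combination and DOT1Li libraries overlapped it. EZH2i was called in Oci-Ly8 (log2 -0.86 ± 0.17, adjusted p = 0.000333; -0.68 and 0.0109 without the 2 libraries that stand apart).

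Combination in Oci-Ly8 was also called for TNFRSF13B (log2 -0.47 ± 0.17, adjusted p = 0.0274), but not without the 2 libraries that stand apart (-0.30, 0.233) or with the line fitted alone (-0.45, 0.123). Leaving out 1 library ended that call for Oci-Ly8 DMSO replicate 2 (log2 -0.45, adjusted p = 0.0694), DMSO replicate 3 (-0.29, 0.261) and Combination replicate 1 (-0.34, 0.175). In SUDHL6, where TACI was lowest, it had 2.10, 1.45 and 1.88 CPM with DOT1Li, 1.18, 1.42 and 1.33 CPM with EZH2i and 1.04, 2.06 and 0.856 CPM with Combination, against 3.12, 3.04 and 3.36 CPM with DMSO. All 9 treated SUDHL6 libraries were below all DMSO libraries.

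In SUDHL6, TNFRSF13B fell by 1.27 on the log2 scale with EZH2i (SE 0.35, adjusted p = 0.00625) and by 1.27 with Combination (SE 0.36, 0.00409). DOT1Li gave -0.81 ± 0.35 there (adjusted p = 0.200), and -0.81 with an adjusted p of 0.0111 when the replicate number was kept as a block. That TNFRSF13B change was also called with no filter on low counts (0.00884), with the line fitted alone (0.0277) and with DESeq2 (0.0358). It was not called without the 2 Oci-Ly8 libraries that stand apart or with DESeq2's size factors in edgeR. Oci-Ly7 had the directions apart: 18.7, 21.2 and 20.5 CPM with EZH2i and 30.6, 54.8 and 44.9 CPM with Combination, against 28.9, 34.8 and 33.3 CPM with DMSO. EZH2i libraries were all below DMSO, and 1 Combination library lay within it and the others above it.

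The test called TNFRSF13B lower with EZH2i in Oci-Ly7 (log2 -0.69 ± 0.17, adjusted p = 0.00387) and higher with Combination (0.42 ± 0.16, 0.0453). The second call was lost without any 1 of 23 libraries, with adjusted p up to 0.403, and with the line fitted alone (0.41, 0.116). Oci-Ly18, where TACI was highest, had no call, with log2 changes of -0.09 ± 0.15, 0.09 ± 0.15 and -0.22 ± 0.15 for DOT1Li, EZH2i and Combination. Combination was called lower there with the line fitted alone (-0.24, adjusted p = 0.00343) and under the replicate block (-0.22, 0.0290). TNFRSF13B overlaps TBC1D27P on the same strand, which had 26.7 CPM with Combination and 11.7 CPM with EZH2i in Oci-Ly7, against 17 CPM with DMSO. The sources used here name neither the counting program nor its treatment of shared reads, so reads of the 2 genes may not be told apart.

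TNFRSF17 (ENSG00000048462, chromosome 16, 11965210 to 11968068) moved in opposite directions in different lines. In Oci-Ly7 it had 6.37, 7.05 and 6.21 CPM with DOT1Li, 5.52, 5.83 and 7.32 CPM with EZH2i and 4.91, 5.27 and 3.13 CPM with Combination, against 9.80, 11.8 and 8.49 CPM with DMSO. All treated libraries were below all DMSO libraries. The changes were -1.18 ± 0.20 with Combination (adjusted p = 4.9e-06), -0.69 ± 0.19 with EZH2i (0.00906) and -0.62 ± 0.19 with DOT1Li (0.0670, not called). DOT1Li was called with DESeq2 (0.0400), with no filter (0.0278), under the block (0.01815), without the 2 Oci-Ly8 libraries that stand apart (0.0286) and with the line fitted alone (0.0282).

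The Oci-Ly7 EZH2i call of TNFRSF17 was lost without DMSO replicate 2 (log2 -0.55, adjusted p = 0.105) or EZH2i replicate 1 (-0.61, 0.0616). In Oci-Ly18 it had 1.68, 1.95 and 2.16 CPM with DOT1Li, 5.87, 6.45 and 4.83 CPM with EZH2i and 4.72, 3.38 and 3.60 CPM with Combination, against 3.02, 2.39 and 3.22 CPM with DMSO. EZH2i and Combination libraries were above DMSO and DOT1Li libraries below it, and EZH2i alone was called (log2 0.98 ± 0.24, adjusted p = 0.00147). In Oci-Ly8 the Combination libraries held 10, 8 and 8 counts, against 0, 4 and 3 with DMSO (log2 1.91 ± 0.62, adjusted p = 0.0131), a call lost without DMSO replicate 1 (1.32, 0.0875) and at 2.18 (0.0153) without the 2 libraries that stand apart.

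The average over 4 lines called TNFRSF17 higher with EZH2i (log2 0.96 ± 0.35, adjusted p = 0.0318). That value takes in SUDHL6, which held 7 counts with EZH2i and 1 with DMSO. Over the 3 lines with at least 10 counts, an average chosen after seeing the data, it was 0.55 ± 0.24 (adjusted p = 0.0916). It was also lost without any 1 of 6 libraries, with adjusted p up to 0.0938. NPIPB2, on the opposite strand, overlaps TNFRSF17, and the sources used here do not state whether the counting used strand. NPIPB2 held 121 counts in the 12 Oci-Ly8 libraries, against 67 for TNFRSF17, and 166 against 15 in the 12 SUDHL6 libraries.

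TNFRSF14 (ENSG00000157873, chromosome 1, 2555639 to 2565382), also known as HVEM, is the receptor for LIGHT and the partner of BTLA. It was called higher on average with DOT1Li (log2 0.31 ± 0.10, adjusted p = 0.0353), EZH2i (0.26 ± 0.10, 0.0411) and Combination (1.01 ± 0.09, 3.1e-13). The DOT1Li call was lost without any 1 of 9 libraries (adjusted p up to 0.160) and the EZH2i call without any 1 of 12 (up to 0.131). No single library ended the Combination call.

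In SUDHL6, its highest line, TNFRSF14 had 37.2, 35.1 and 33.8 CPM with DOT1Li, 35, 47.4 and 34.2 CPM with EZH2i and 52.0, 62.6 and 54.6 CPM with Combination, against 30.4, 28.9 and 30.01 CPM with DMSO. Treated libraries were all above DMSO, and Combination libraries above all others. Combination gave a log2 change of 0.92 ± 0.11 (adjusted p = 5.4e-09) and EZH2i 0.39 ± 0.11 (0.0100), the second lost without EZH2i replicate 2 (0.22, 0.232). In Oci-Ly8 it had 11.2, 10.05 and 12.5 CPM with DOT1Li, 7.27, 8.26 and 8.85 CPM with EZH2i and 18.9, 15.3 and 20.1 CPM with Combination, against 6.30, 6.01 and 7.04 CPM with DMSO.

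All treated Oci-Ly8 libraries were above DMSO for TNFRSF14, in the order EZH2i, DOT1Li, Combination. DOT1Li (log2 0.78 ± 0.16, adjusted p = 0.00152) and Combination (1.49 ± 0.15, 2.2e-11) were called there. Without the 2 libraries that stand apart they were at 0.78 (0.00630) and 1.545 (1.45e-11). In Oci-Ly18 it had 2.10, 1.88 and 0.878 CPM with DOT1Li, 2.16, 1.63 and 2.48 CPM with EZH2i and 3.12, 2.91 and 3.47 CPM with Combination, against 1.55, 1.19 and 1.05 CPM with DMSO. Only the DOT1Li libraries overlapped DMSO in Oci-Ly18, and Combination was called (log2 1.34 ± 0.26, adjusted p = 3.8e-05).

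EZH2i in Oci-Ly18 gave 0.74 ± 0.28 for TNFRSF14 (adjusted p = 0.0528), and 0.75 with an adjusted p of 0.0428 under the replicate block. That TNFRSF14 change was also called with DESeq2 (0.0374), with its size factors in edgeR (0.0494) and without the 2 Oci-Ly8 libraries that stand apart (0.04925). It was not called with no filter on low counts or with the line fitted alone. Oci-Ly7 had no call, with -0.15 ± 0.18, -0.43 ± 0.19 and 0.27 ± 0.17 for DOT1Li, EZH2i and Combination. TNFRSF14-AS1, on the opposite strand, had 2.58 CPM with Combination in SUDHL6, against 1.08 CPM with DMSO, and whether the counting used strand is not stated in the sources used here.

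TNFRSF1B (ENSG00000028137, chromosome 1, 12166991 to 12209228) was measurable in SUDHL6 and, at a low level, in Oci-Ly8. In SUDHL6 it had 5.61, 4.96 and 5.58 CPM with DOT1Li, 3.16, 2.98 and 3.40 CPM with EZH2i and 6.42, 6.19 and 4.77 CPM with Combination, against 3.56, 3.75 and 2.72 CPM with DMSO. DOT1Li and Combination libraries were all above DMSO, and EZH2i libraries lay within it. Combination was called (log2 0.79 ± 0.21, adjusted p = 0.00230).

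DOT1Li in SUDHL6 gave 0.68 ± 0.22 for TNFRSF1B (adjusted p = 0.0561), and 0.69 with an adjusted p of 0.0197 under the block. It was not called with no filter on low counts or with DESeq2's size factors in edgeR. That TNFRSF1B change was called with the line fitted alone (0.00816), with DESeq2 (0.0390) and without the 2 Oci-Ly8 libraries that stand apart (0.0311). In Oci-Ly8 it held 5, 8 and 7 counts with Combination, against 4, 1 and 1 with DMSO (log2 1.74 ± 0.61, adjusted p = 0.0225), which without the 2 libraries that stand apart was 1.5 (0.0783). Leaving out 1 library ended that call for Oci-Ly8 DMSO replicate 2 (1.38, 0.107), DMSO replicate 3 (1.51, 0.0827), Combination replicate 2 (1.64, 0.0704) and Combination replicate 3 (1.71, 0.0527). In Oci-Ly18 it held 4 counts with Combination and 0 with DMSO, and in Oci-Ly7 2 counts with Combination and 1 with DMSO.

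The average over 4 lines called TNFRSF1B higher with Combination (log2 1.69 ± 0.58, adjusted p = 0.0136), a value that depends on those few counts. Without Oci-Ly7 Combination replicate 1 it was 1.06 with an adjusted p of 0.9999. Over Oci-Ly8 and SUDHL6, the lines with at least 10 counts, it was 1.27 ± 0.32 (adjusted p = 0.00118).

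CD40 (ENSG00000101017, chromosome 20, 46118271 to 46129863), the receptor for T cell help, was called in SUDHL6. In SUDHL6 it had 3.89, 5.09 and 3.49 CPM with DOT1Li, 4.12, 5.56 and 3.92 CPM with EZH2i and 5.71, 7.22 and 5.74 CPM with Combination, against 5.21, 3.46 and 3.93 CPM with DMSO. Combination libraries were all above DMSO, and the single-inhibitor libraries overlapped it. Combination gave 0.57 ± 0.16 (adjusted p = 0.00462), lost without DMSO replicate 2 (0.44, 0.0545) or Combination replicate 2 (0.45, 0.0522).

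In Oci-Ly7, where CD40 was highest, it had 44.6, 41.7 and 41.5 CPM with Combination, against 36.2, 31.7 and 39.8 CPM with DMSO. The groups did not overlap, and the change of 0.25 ± 0.11 was not called (adjusted p = 0.0781). It was called under the replicate block (0.0253), with the line fitted alone (0.0166) and without the 2 Oci-Ly8 libraries that stand apart (0.0368). Oci-Ly8 went the other way with Combination, at -0.22 ± 0.12 (adjusted p = 0.154), and at -0.24 (0.138) without the 2 libraries that stand apart. Without Oci-Ly8 Combination replicate 3 it was called lower (-0.35, 0.0360). Oci-Ly18 was at 0.04 ± 0.17 (0.889). The F test called the Combination effect on CD40 different between lines (adjusted p = 0.00686). On average Combination gave 0.16 ± 0.07 (adjusted p = 0.0627), with an interval of the log2 difference of 0.01 to 0.31 at 95%. That average was called with DESeq2 (0.18, 0.0323), with its size factors in edgeR (0.18, 0.0425) and under the block (0.16, 0.0444).

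CD27 (ENSG00000139193, chromosome 12, 6444955 to 6451718) fell in Oci-Ly18, the line with the third highest level. It had 18.5, 16.3 and 19.5 CPM with DOT1Li, 4.31, 3.26 and 3.72 CPM with EZH2i and 9.37, 8.25 and 9.12 CPM with Combination, against 21.9, 20.1 and 25.9 CPM with DMSO. All treated libraries were below DMSO, EZH2i libraries the lowest and Combination libraries between EZH2i and DOT1Li. EZH2i gave -2.60 ± 0.16 (6.06-fold lower, adjusted p = 6.8e-18) and Combination -1.34 ± 0.13 (2.54-fold lower, 1.6e-11).

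DOT1Li in Oci-Ly18 gave -0.33 ± 0.12 for CD27 (adjusted p = 0.116), and -0.32 with an adjusted p of 0.0202 under the block. In Oci-Ly7 it had 62.2, 61.8 and 55.6 CPM with Combination, against 54.1, 45.2 and 48.9 CPM with DMSO, with no overlap (log2 0.28 ± 0.10, adjusted p = 0.0368). That call was lost without any 1 of 7 libraries (adjusted p up to 0.185). In Oci-Ly8 it had 72.0, 69.7 and 75.7 CPM with Combination, against 75.5, 84.1 and 109 CPM with DMSO, ranges that overlap by little.

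The Oci-Ly8 change of CD27 was -0.30 ± 0.10 (adjusted p = 0.0182), -0.15 (0.221) without the 2 libraries that stand apart, and -0.28 (0.1175) with the line fitted alone. It was also lost without DMSO replicate 3 (-0.14, 0.332), Combination replicate 1 (-0.30, 0.0503) or Combination replicate 2 (-0.28, 0.0703). In SUDHL6 CD27 held 5, 1 and 4 counts over the 3 libraries with DOT1Li, EZH2i and Combination, against 2 with DMSO. Its overlapping neighbours TAPBPL (same strand) and CD27-AS1 (opposite strand) held 2353 and 2718 counts in the 12 SUDHL6 libraries.

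The average over 4 lines did not call CD27 with EZH2i (-0.90 ± 0.44, adjusted p = 0.129). Over the 3 lines with at least 10 counts, the average chosen after seeing the data, EZH2i gave -0.90 ± 0.07 (adjusted p = 8.8e-14) and Combination -0.46 ± 0.07 (1.5e-07). Oci-Ly18 had the only EZH2i call among these lines, beside 0.07 ± 0.11 in Oci-Ly7 and -0.17 ± 0.10 in Oci-Ly8.

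TNFRSF21 (ENSG00000146072, chromosome 6, 47231532 to 47309905), or death receptor 6, rose with EZH2i on average (log2 0.48 ± 0.06, adjusted p = 2.6e-08) and with Combination (0.29 ± 0.06, 0.000107). In Oci-Ly7 it had 55.5, 53.4 and 51.2 CPM with EZH2i and 53.2, 53.4 and 47.3 CPM with Combination, against 37.2, 39.5 and 34.4 CPM with DMSO. In Oci-Ly18 it had 33.6, 33.9 and 33.7 CPM with EZH2i and 23.6, 30.1 and 32.2 CPM with Combination, against 19.4, 20.8 and 23.1 CPM with DMSO. In Oci-Ly8 it had 13.4, 13.2 and 12.7 CPM with EZH2i and 12.7, 13.3 and 11.6 CPM with Combination, against 7.71, 7.64 and 5.06 CPM with DMSO.

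All EZH2i and Combination libraries of these 3 lines were above their DMSO libraries for TNFRSF21. The log2 changes with EZH2i were 0.52 ± 0.11 in Oci-Ly7 (adjusted p = 0.000354), 0.67 ± 0.12 in Oci-Ly18 (1.9e-05) and 0.93 ± 0.15 in Oci-Ly8 (7.7e-06). Those with Combination were 0.47 ± 0.11 (0.000626), 0.43 ± 0.12 (0.00332) and 0.87 ± 0.15 (9.5e-06) in the same lines, the Oci-Ly18 one lost without Combination replicate 3 (0.33, 0.0503). Without the 2 libraries that stand apart, Oci-Ly8 was at 0.77 with EZH2i (3.58e-05) and 0.70 with Combination (6.19e-05). SUDHL6 went the other way, with 22.9, 20.4 and 24.5 CPM with DOT1Li, 22.9, 21.4 and 28.2 CPM with EZH2i and 18.4, 16.8 and 20.4 CPM with Combination, against 30.3, 25.7 and 28.05 CPM with DMSO.

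In SUDHL6 the Combination and DOT1Li libraries were all below DMSO for TNFRSF21, and 1 EZH2i library reached into it. Combination gave -0.59 ± 0.12 (adjusted p = 5.3e-05). DOT1Li gave -0.31 ± 0.12 (0.120), which under the block was -0.31 with an adjusted p of 0.0158, and EZH2i gave -0.22 ± 0.11 (0.181), which under the block was -0.22 with 0.0477.

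FAS (ENSG00000026103, chromosome 10, 88953813 to 89029605) had no call on average, with -0.14 ± 0.09, 0.07 ± 0.08 and -0.08 ± 0.08 for DOT1Li, EZH2i and Combination. In Oci-Ly7 it had 15.5, 10.2 and 12.4 CPM with DOT1Li, 14.7, 11.4 and 12.7 CPM with EZH2i and 11.6, 10.5 and 10.8 CPM with Combination, against 18.1, 14.9 and 16.9 CPM with DMSO. Combination and EZH2i libraries were all below DMSO, the second by little, and 1 DOT1Li library lay within it. Combination was called (-0.60 ± 0.16, adjusted p = 0.00239).

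Among the comparisons whose replicate numbers pair the libraries, FAS was called under the block with DOT1Li in Oci-Ly8 (-0.50, adjusted p = 0.0203; -0.49 ± 0.20 and 0.145 without it) and with Combination in SUDHL6 (0.26, 0.0427; 0.26 ± 0.16 and 0.195 without it). Without the 2 Oci-Ly8 libraries that stand apart, and with no block, the Oci-Ly8 change of FAS was -0.52 (adjusted p = 0.213). Those libraries carry the same replicate number, so the block pairs them with each other. FAS overlaps STAMBPL1 on the same strand, which averaged 32.2 CPM with Combination in Oci-Ly7, against 44.2 CPM with DMSO.

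Combination was then set against each single inhibitor, from the same libraries. On average 4 of 9 receptors were higher with Combination than with DOT1Li (19.4% of all genes tested) and none lower (15.8%). That count of 0 compares with 0 at an unadjusted p under 0.05 and 0 with DESeq2. The 4 were TNFRSF13C (log2 1.27 ± 0.07, adjusted p = 1.7e-17), TNFRSF14 (0.69 ± 0.09, 1.2e-08), TNFRSF21 (0.37 ± 0.06, 7e-06) and CD40 (0.18 ± 0.07, 0.0480). The CD40 call was lost without any 1 of 25 libraries (adjusted p up to 0.127) and with no filter on low counts (0.0676).

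Against EZH2i, 2 receptors were higher with Combination (12.8% of all genes) and 1 lower (12.2%). TNFRSF14 was 1.68-fold higher (log2 0.75 ± 0.09, adjusted p = 3.5e-09) and TNFRSF13C 1.53-fold higher (0.62 ± 0.06, 1.2e-09). TNFRSF21 was lower (-0.18 ± 0.06, 0.0179), a call lost without SUDHL6 EZH2i replicate 3 (-0.15, 0.0529).

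The log2 change with Combination was also tested against the sum of both single changes. No receptor was called as departing from that sum, with edgeR calling 9 of all genes (0.0507%). Among the receptors 4 had an unadjusted p under 0.05 (TNFRSF14, TNFRSF13C, TNFRSF13B and TNFRSF17) and DESeq2 called 0. TNFRSF17 lay below the sum over 4 lines (log2 -1.05 ± 0.48, adjusted p = 0.643, 95% interval -2.01 to -0.08). Over its 3 lines with at least 10 counts, an average chosen after seeing the data, TNFRSF17 was at -0.20 ± 0.32. TNFRSF14 was 0.43 ± 0.13 above the sum (adjusted p = 0.329, 95% interval 0.16 to 0.70) and TNFRSF13C 0.26 ± 0.11 above it (0.569, 0.04 to 0.47). TNFRSF13B was 0.54 ± 0.17 above it (0.354, 0.20 to 0.89). Its departure was called in edgeR with no filter on low counts (0.53, adjusted p = 0.0005075) and under the replicate block (0.53, 0.00566). CD27 was 0.48 ± 0.48 above it over 4 lines (0.990). Its departure was 0.51 ± 0.10 (adjusted p = 0.0106) over the 3 lines with at least 10 counts. That average was chosen after seeing the data, and its value rests mainly on Oci-Ly18. There CD27 changed by -1.34 under Combination, beside -2.60 under EZH2i and -0.33 under DOT1Li. The same 3 changes were 0.28, 0.07 and 0.17 for Oci-Ly7, and -0.30, -0.17 and -0.05 for Oci-Ly8. For these last lines the Combination change lay close to the sum. Departure within a single line was not tested.

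Effects differed between lines more often than not under EZH2i and Combination. The F test for a difference in effect between the 4 lines called 6 of 9 receptors for EZH2i (24% of all genes) and 8 of 9 for Combination (43.8%), the exception being TNFRSF1B (adjusted p = 0.260). For DOT1Li it called 0 (5.14%), beside 6 at an unadjusted p under 0.05 and 2 with DESeq2, TNFRSF13C (0.0189) and TNFRSF14 (0.0252). The CD27 effect of EZH2i ran between -2.60 in Oci-Ly18 and 0.07 in Oci-Ly7, leaving out SUDHL6 with its few counts (adjusted p of the difference over 4 lines 1.2e-14). The TNFRSF13C effect of Combination ran between 0.58 in Oci-Ly8 and 3.39 in Oci-Ly18 (6.1e-14). TNFRSF21 with Combination ran between -0.59 in SUDHL6 and 0.87 in Oci-Ly8 (1.9e-08).

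Within lines, the pattern of each receptor over the 16 groups (mean log2 CPM less the line's mean) was compared with other protein-coding genes, as a description over groups that share their DMSO libraries. The genes most like TNFRSF13C were FAAP20 (r = 0.95), RCOR2 (0.94) and NOTCH1 (0.94). Those most like TNFRSF14 were HEXD (0.94), C1QTNF6 (0.93) and ATP6AP1 (0.93), and ATP6AP1 was also the second for TNFRSF1B (0.93), after MORN1 (0.94) and before CD247 (0.92). TNFRSF17 was most like GHDC (0.96), IRF4 (0.94) and SERHL2 (0.87), of which IRF4 is a transcription factor of plasma cells. TNFRSF21 was most like TET3 (0.96), MAPK14 (0.94) and CHSY1 (0.93).

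For the remaining receptors the closest genes were NUP62 (0.87), MGRN1 (0.85) and E2F4 (0.81) for TNFRSF13B, MCU (0.93), SLC41A3 (0.89) and UGT8 (0.87) for CD40, ALOX5AP (0.90), APOL6 (0.89) and MAP4K1 (0.88) for CD27, and ERLEC1 (0.91), STT3A (0.88) and AGFG2 (0.87) for FAS. Between receptors the highest value was that of TNFRSF14 with TNFRSF1B (0.83) and the lowest that of TNFRSF13C with CD27 (-0.69).

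The rest of the pathway was read in 5 lists of ligands, other receptors and signalling proteins. Of 19 other TNF receptors, 12 were tested, and with Combination on average 7 rose and 2 fell (25.7% and 20.7% of all genes), with a median log2 change of 0.79 beside 0.08 over all genes. NGFR, the low-affinity nerve growth factor receptor, rose by 2.34 ± 0.32 on the log2 scale (adjusted p = 3.6e-08), to 0.91 CPM with Combination in Oci-Ly8, against 0.10 CPM with DMSO. TNFRSF1A, the death-domain TNF receptor, rose by 0.51 ± 0.07 (4.7e-08). RELT (-0.46 ± 0.05, 6.8e-12) and the TRAIL receptor TNFRSF10B (-0.34 ± 0.05, 3.5e-07) fell. By line, Combination called 3 of these 12 receptors higher and 5 lower in Oci-Ly8 (35% of all genes in either direction), with a median of -0.10. The counts were 3 and 2 in Oci-Ly7 (29.8%), 6 and 2 in SUDHL6 (39.3%) and 6 and 3 in Oci-Ly18 (35%).

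Of 18 TNF family ligands, 12 were tested, and in edgeR 2 rose with Combination (25.7% of all genes) and none fell (20.7%), with a median of 0.46. That count of 0 stands beside 0 at an unadjusted p under 0.05 and 0 with DESeq2. TNFSF4 (OX40 ligand) rose by 1.06 ± 0.14 (adjusted p = 9.6e-09), and TNFSF13B, which encodes the ligand BAFF, by 1.36 ± 0.51 (0.0250), with levels of at most 1.70 CPM with Combination and 0.98 CPM with DMSO, both in SUDHL6. CD70, the ligand of CD27, was not called (0.13 on average). Of the TNFRSF14 co-receptors BTLA and CD160, BTLA alone was tested and not called (-0.08).

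Of 26 receptor adaptors and proximal regulators, all tested, 10 rose and 8 fell with Combination (25.7% and 20.7% of all genes), with a median of 0.08. The smallest adjusted p were those of TRAF4 (-0.66 ± 0.04, 5.1e-17), CFLAR, a brake on caspase-8 (0.32 ± 0.04, 2.6e-08), TRAF3, which keeps the NF-kB-inducing kinase low (0.42 ± 0.06, 1.3e-07), and RIPK1 (0.36 ± 0.05, 3.8e-07). Of 13 IKK and NF-kB subunits and inhibitors, 1 rose and 6 fell (25.7% and 20.7% of all genes), with a median of -0.10, and DESeq2 called 2 higher and 5 lower. RELB, a subunit of the alternative NF-kB pathway, fell by 0.62 (SE 0.07, adjusted p = 1.7e-10), NFKBIB by 0.43 (SE 0.06, 6.2e-09) and CHUK, the kinase IKK-alpha, by 0.22 (SE 0.04, 2.4e-05), while IKBKB, the kinase IKK-beta, rose by 0.18 (SE 0.04, 0.000135).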

How the data were processed

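RNA was sequenced in 48 libraries of 4 lymphoma cell lines. Per the labels' protocols, stranded polyA+ libraries were made with an xGen kit; per the submitters' processing notes, STAR, DESeq2 and the GRCh38 (hg38) build were used, and DESeq2 is named without its role. The sources used here name no counting program, strand setting, annotation release or tool version. The deposited table by the authors holds raw read counts per gene, with no normalization. Its columns were assigned to groups by the line, treatment and replicate in their headers. The growth protocol does not name Oci-Ly7, so lines are named after the sample labels.

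Counts were tested with edgeR 4.0.16 in R 4.3.3 (limma 3.58.1): filterByExpr on 16 groups kept 17749 of 37706 genes, libraries were scaled with TMM, and a mean per group was fitted, leaving 32 residual degrees of freedom (quasi-likelihood F tests, robust). A gene is called at a Benjamini-Hochberg adjusted p under 0.05 over all genes tested. An average is the mean of the contrasts of 4 lines. SE is the absolute log2 fold change divided by the root of its F value. CPM uses TMM-scaled totals, and CPM per kb divides by exonic length from GENCODE. Patterns over groups used log2 CPM with a prior count of 2 and other protein-coding genes with a mean of at least 1. The code was tested on simulated data.

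The members, gene lists and alternatives were chosen with earlier results of these data known. Named are all 10 receptors, the 3 genes most like each tested one, and up to 4 called genes per list with the smallest adjusted p with Combination. Other settings were DESeq2 1.42.0, its size factors, no filter, a replicate block, each line fitted alone, and libraries left out. Where libraries were left out singly, the dispersion trend of the full fit was kept. Same-numbered libraries of a line came from the replicate numbers in the labels; their deviations from group means correlated above 0.1 in 58 of 72 pairs, and in all 3 pairs for 7 of 12 comparisons with DMSO (DOT1Li and Combination in Oci-Ly8, all in SUDHL6, DOT1Li and EZH2i in Oci-Ly18). For these 7 the blocked value stands beside a result where it changed the call.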

Additional observations from a re-analysis of the deposited data

Results flagged for a closer look

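These results were singled out because the treatment effect differed between the 4 lines in edgeR's F test, and they are given without explanation. With EZH2i, the adjusted p of the difference was 3.06e-12 for TNFRSF13C (log2 changes between -0.05 and 2.75), 1.24e-14 for CD27 (between -2.60 and 0.07), 8.05e-06 for TNFRSF21 (between -0.22 and 0.93), 7.68e-05 for TNFRSF17 (between -0.69 and 2.20, the upper value in SUDHL6 with few counts), 0.00186 for TNFRSF13B (between -1.27 and 0.09) and 0.0112 for TNFRSF14 (between -0.43 and 0.74). The TNFRSF14 value was lost without Oci-Ly7 DMSO replicate 3 (0.0574) or Oci-Ly7 EZH2i replicate 2 (0.0711).

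With Combination, the adjusted p was 6.06e-14 for TNFRSF13C (between 0.58 and 3.39), 1.03e-09 for CD27 (between -1.34 and 0.80, the upper value in SUDHL6 with few counts), 1.93e-08 for TNFRSF21 (between -0.59 and 0.87), 1.15e-05 for TNFRSF17 (between -1.18 and 1.91), 0.000203 for TNFRSF14 (between 0.27 and 1.49), 0.000829 for TNFRSF13B (between -1.27 and 0.42), 0.00686 for CD40 (between -0.22 and 0.57) and 0.00903 for FAS (between -0.60 and 0.26).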

How the results depend on the processing

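DESeq2 size factors left every count of called receptors within 1.5 times its value, and no called receptor changed direction under any setting run. The replicate block gave 1 lower receptor in the DOT1Li average (TNFRSF13B), 4 higher and 2 lower for Combination against EZH2i, 1 departure from the sum of single effects (TNFRSF13B, 0.53, adjusted p = 0.00566), 3 calls with DOT1Li in Oci-Ly7, 3 in SUDHL6 and 1 in Oci-Ly18, and 5 line differences with DOT1Li; other counts stayed within 1.5 times. Where the replicate numbers did not pair the libraries, the block also called FAS with DOT1Li (-0.39, 0.01405) and EZH2i (-0.36, 0.00947) in Oci-Ly7 and with EZH2i in Oci-Ly8 (0.33, 0.0446). With no filter on low counts there were 1 lower receptor in the DOT1Li average, 1 departure from the sum, 2 calls with DOT1Li in Oci-Ly7, 1 in SUDHL6, and 4 line differences with DOT1Li. Without both Oci-Ly8 libraries that stand apart, DOT1Li gave 2 calls in Oci-Ly7, 2 in SUDHL6 and 1 in Oci-Ly18 and 1 line difference, and Combination gave 4 calls in Oci-Ly8. Lines fitted alone gave DOT1Li 2 calls in Oci-Ly7, 1 in Oci-Ly8, 3 in SUDHL6 and 1 in Oci-Ly18, and Combination 3 in Oci-Ly8. The DESeq2 test gave DOT1Li 2 calls in Oci-Ly7, 2 in SUDHL6 and 2 line differences. The average over lines with at least 10 counts, chosen after seeing the data, gave 2 lower receptors with EZH2i, 2 lower with Combination, 1 lower for Combination against DOT1Li, 4 higher for Combination against EZH2i, and 1 departure from the sum. Averaging over lines with any count left out no line. The cause of these moves was not tested.

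Leaving out 1 library gave 1 to 2 higher receptors with DOT1Li on average, 2 to 4 with EZH2i (2 without Oci-Ly8 EZH2i replicate 2 or SUDHL6 EZH2i replicate 2), 0 to 1 lower for Combination against EZH2i, and 0 to 3 line differences with DOT1Li. By line it gave 1 to 2 calls with DOT1Li in Oci-Ly7, 1 to 2 in Oci-Ly8 and 0 to 1 in SUDHL6, 1 to 4 with EZH2i in SUDHL6 (1 without SUDHL6 EZH2i replicate 2), and 4 to 7 with Combination in Oci-Ly8 (4 without Oci-Ly8 DMSO replicate 3). Scaling CPM by raw totals moved 23 of 160 group levels by more than 1 SD. Receptors with few counts in a line (TNFRSF1B, TNFRSF17 and CD27) could not show modest changes there at this depth.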
